A study of Mus musculus with 12 samples.

Results

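The 9 genes of interferon signalling described here were followed in mouse melanoma cells treated with an inhibitor of DNA methylation, an isothiocyanate or both. They encode interferon receptor chains (Ifnar1, Ifnar2, Ifngr1), interferon regulatory factors (Irf1, Irf2, Irf3, Irf7, Irf9) and a STAT protein (Stat2). Their rows were found by symbol among the 24421 gene rows of the count files, and the list was drawn up with earlier results of these data known. All 9 had a row and all 9 passed the expression filter that 11638 genes passed. B16F10 is an established mouse melanoma line, and RNA of 12 cultures was sequenced, 3 independent biological repeats in each of 4 groups. The control group received DMSO. The DAC group received 25 nM 5-aza-2'-deoxycytidine, a nucleoside analog that blocks DNA methylation, for 72 h. The SFN group received sulforaphane, found in cruciferous vegetables, for the last 48 h, and the DAC+SFN group received DAC for 72 h with SFN over the last 48 h. The SFN dose was 5 µM in the study's methods, whereas the GEO protocol text gives 5 nM for SFN alone and 5 µM for the combination, so by that text every comparison that sets SFN beside DAC+SFN, and every average or interaction over both, also differs in dose.

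Type I interferons bind a receptor made of IFNAR1 and IFNAR2, whose kinases JAK1 and TYK2 phosphorylate STAT proteins. STAT2 and IRF9 are subunits of the complex ISGF3, which binds interferon-stimulated response elements (ISRE) and switches on antiviral and antigen presentation genes. Interferon gamma binds IFNGR1 and IFNGR2 and acts on genes with gamma-activated sites (GAS). Irf7, Irf9 and Stat2 are themselves interferon-stimulated genes, whereas Irf3 is made constitutively and is switched on by phosphorylation.

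The promoters of Irf7, Irf9 and Stat2 are shown because their mRNAs moved together and because DAC, once built into DNA, traps the DNA methyltransferases, which in mammals methylate cytosines mostly in CG pairs. Each line gives the 250 bases before the RefSeq start on GRCm38.p6, read 5′ to 3′ on the gene's strand, with each CG pair in capitals. The Irf7 window is chr7:141266425-141266674 on the minus strand, the Irf9 window chr14:55603735-55603984 on the plus strand and the Stat2 window chr10:128270248-128270497 on the plus strand.
Irf7: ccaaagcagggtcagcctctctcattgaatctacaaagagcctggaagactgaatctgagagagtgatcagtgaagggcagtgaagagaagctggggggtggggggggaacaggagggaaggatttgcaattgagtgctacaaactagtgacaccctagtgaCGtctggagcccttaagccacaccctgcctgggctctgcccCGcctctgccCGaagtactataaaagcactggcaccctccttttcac
Irf9: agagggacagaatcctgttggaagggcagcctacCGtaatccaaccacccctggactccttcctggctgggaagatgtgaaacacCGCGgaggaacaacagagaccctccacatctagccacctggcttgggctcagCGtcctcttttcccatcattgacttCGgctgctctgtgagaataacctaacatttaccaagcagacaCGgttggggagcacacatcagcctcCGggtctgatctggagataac
Stat2: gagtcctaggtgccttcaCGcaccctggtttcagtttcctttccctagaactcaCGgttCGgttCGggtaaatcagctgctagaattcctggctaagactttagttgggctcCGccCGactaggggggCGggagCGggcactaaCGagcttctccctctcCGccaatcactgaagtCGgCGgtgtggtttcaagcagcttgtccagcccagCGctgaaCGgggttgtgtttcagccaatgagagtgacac
These stretches hold 3, 7 and 14 CG pairs. Over the full window of 300 bases, which adds 50 bases after the start, Irf7 had 7 pairs, Irf9 had 9 and Stat2 had 22, against a median of 7 over 32851 mouse promoters. A further Irf9 start had 1 pair in its window. The windows of Irf1 had 32 and 43, and that of Ifnar1 had 26. Methylation was not measured in these samples.

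Both strands of these windows were searched for 2 motifs, the ISRE core (GAAA, any 2 bases, GAAA) and the GAS core TTCNNNGAA. All 9 genes had a window, 11 windows in all. An ISRE match lay in Stat2, as TTTCAGTTTC starting 222 bases before the start, and in Irf2, as GAAAATGAAA starting 241 bases before it. A GAS match lay in Irf1 (TTCCCCGAA, 90 bases before the first of its starts), Irf2 (TTCCGAGAA, 224 bases before), Ifnar1 (TTCACGGAA, 5 bases before) and Ifnar2 (TTCCTGGAA, 214 bases before). Of all promoter windows, 3.44% held an ISRE match and 8.3% a GAS match. The windows of Irf3, Irf7, Irf9 and Ifngr1 held neither string of letters. Both Irf9 windows lie inside the annotated gene, which starts at base 55603571, so the bases before that start were not searched. The Irf7 window overlaps its annotated gene, which begins at base 141266481 on the minus strand. Fewer than 250 bases before that start were therefore searched. The matches missing from Irf7 and Irf9 hold for these windows only.

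On mm10 the annotation (GENCODE M21) places Irf1 at chr11:53770014-53778374, Irf2 at chr8:46739732-46847458, Irf3 at chr7:44997648-45002848, Irf7 at chr7:141262706-141266481 and Irf9 at chr14:55603571-55610030. Ifngr1 lies at chr10:19591949-19610229. Ifnar2 (chr16:91372783-91405589) and Ifnar1 (chr16:91485238-91507441) are close neighbours, with Il10rb (chr16:91406164-91425834) between them and Ifngr2 (chr16:91547072-91565623) beyond Ifnar1. Stat2 lies at chr10:128270559-128292849. The counts are per gene, so isoforms are not separated.

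Levels are given as CPM (counts of a gene per 1e+06 counts of the library), scaled between libraries by TMM. Per kilobase of the longest annotated transcript, Ifnar1 had the highest level of the 9 genes in the control cells, 26.6 ± 3.07 CPM per kb (SD, n = 3), and Irf3 followed at 21.5 ± 0.804. Ifnar2 was at 11.99 ± 0.300, Irf1 at 10.7 ± 2.29 and Ifngr1 at 10.3 ± 0.612 CPM per kb, and the ranges of Ifnar2 and Irf1, and of Irf1 and Ifngr1, overlapped. Irf9 (5.69 ± 3.79), Irf2 (5.39 ± 0.720) and Stat2 (5.08 ± 1.73 CPM per kb) were not separated by their spread. Irf7 was the lowest at 0.944 ± 0.821 CPM per kb, below every control value of the others. With the mean transcript length in place of the longest, Ifnar1 stayed the highest (58.1) and Irf7 the lowest (2.30 CPM per kb), while Ifngr1 passed Irf1, and Irf2 and Stat2 passed Irf9.

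**Figure D1:**
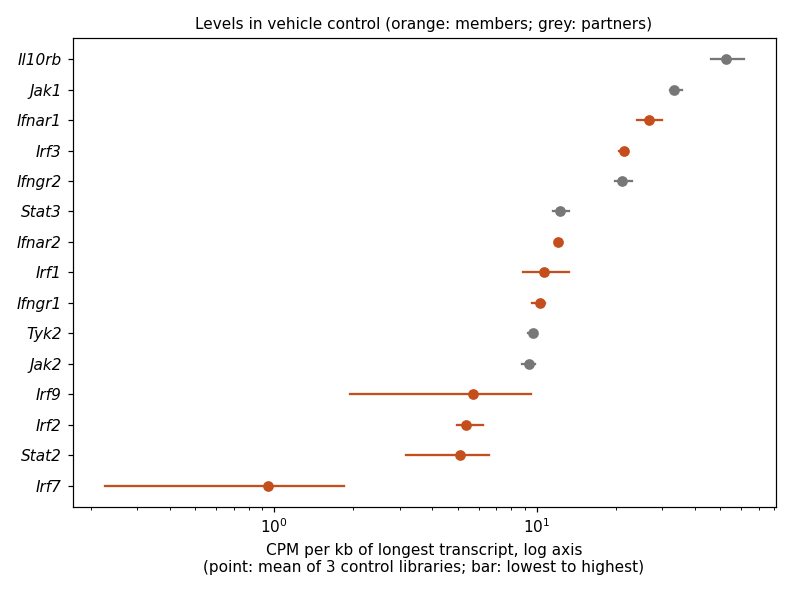
CPM per kb of the longest transcript in the 3 control libraries on a log axis, with points for means and bars from the lowest to the highest library; orange marks the 9 genes and grey their receptor, kinase and STAT partners. Irf7 lay lowest at 0.944 CPM per kb and had, with Irf9, the widest bar, whereas Ifnar2 spanned only 11.7 to 12.3 CPM per kb.

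The partners of these proteins were measured, whereas few or no reads came from the ligands. Of 20 interferon genes (alpha, beta, gamma, lambda and related forms), 0 passed the filter, and the highest count of any of them in any library was 4 reads, in libraries of 15880957 to 27291436 counts. Ifnb1, the interferon beta gene, had reads in 6 of the 12 libraries, with 4 in DAC replicate 3, 4 in DAC+SFN replicate 1 and 1 in each of the other 4. Reads that aligned more than once were discarded, which can undercount the near-identical interferon alpha genes, so these counts do not show that the ligands were absent. Of other IRF genes, Irf4 had at most 9 counts, Irf5 at most 45 and Irf8 at most 4 in any library, and these did not pass the filter. The 7 melanocyte marker genes summed to between 21417 and 30155 CPM in every library, and the 6 leukocyte marker genes to at most 0.255 CPM, with 2 of them at 0 in all 12 libraries. In DAC+SFN against control the melanocyte genes Pmel (-0.36, edgeR adjusted p = 0.0129) and Tyrp1 (-0.17, edgeR adjusted p = 0.0478) fell, and with SFN on average Pmel fell (-0.25) and Tyr rose (0.12). The 4 fibroblast marker genes summed to between 13.1 and 21.2 CPM, with Dcn at no more than 1 read and Lum at no more than 3 in any library. Of the 2 that passed the filter, Pdgfra fell with SFN against control (-0.84, edgeR adjusted p = 0.0240), in DAC+SFN against control (-0.73, edgeR adjusted p = 0.0249) and with SFN on average (-0.54, edgeR adjusted p = 0.0240). The part of these marker genes in the results was not tested. Exons of 5 of the 9 genes overlap those of another gene, over 1.19% (Irf7 with Phrf1) to 9.46% (Ifnar2 with Gm21970) of their exonic bases, and the setting for such reads and for strand is not given in the sources used here. In bulk RNA, fewer cells of a type and less RNA per cell cannot be told apart.

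Irf7, the interferon-inducible factor that amplifies type I interferon production, was the member that moved most. In replicates 1, 2 and 3 it had 2.48, 0.731 and 5.96 CPM in the DMSO control (54, 17 and 116 reads), 3.85, 1.60 and 16.6 CPM after DAC alone (93, 25 and 444 reads), 2.02, 0.640 and 2.82 CPM after SFN alone (43, 17 and 69 reads) and 3.87, 1.44 and 7.47 CPM after both agents (85, 30 and 160 reads). The groups overlapped, with replicate 2 the lowest and replicate 3 the highest in each, and within each replicate number the library with DAC was higher than its partner without DAC, in 6 of 6 pairs. Averaged over the absence and presence of SFN, Irf7 rose 2.27-fold with DAC (log2 fold change 1.18, SE 0.19, edgeR adjusted p = 0.00424). In the absence of SFN the DAC difference was 1.16 (SE 0.25, edgeR adjusted p = 0.0880), and in its presence Irf7 rose by 1.21 (SE 0.28, edgeR adjusted p = 0.0471).

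Irf9, the DNA-binding subunit of ISGF3, had 21.7, 7.53 and 36.8 CPM in the DMSO control, 28.3, 12.95 and 48.0 after DAC alone, 17.1, 9.14 and 19.6 after SFN alone, and 22.9, 13.1 and 33.8 CPM after both agents. The groups overlapped, replicate 2 was the lowest in each of them, and all 6 pairs were higher with DAC. The averaged DAC change was 0.53 on the log2 scale (SE 0.11, edgeR adjusted p = 0.0161). Stat2, which brings the transactivation domain to ISGF3, had 24.2, 13.98 and 28.8 CPM in the DMSO control, 27.2, 14.4 and 40.5 after DAC alone, 19.3, 11.9 and 18.8 after SFN alone, and 23.1, 15.0 and 30.4 CPM after both agents. Its groups overlapped too, and 6 of 6 pairs were higher with DAC, by between 0.038 and 0.69 on the log2 scale. The averaged DAC change of Stat2 was 0.35 (SE 0.085, edgeR adjusted p = 0.0307).

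**Figure D2:**
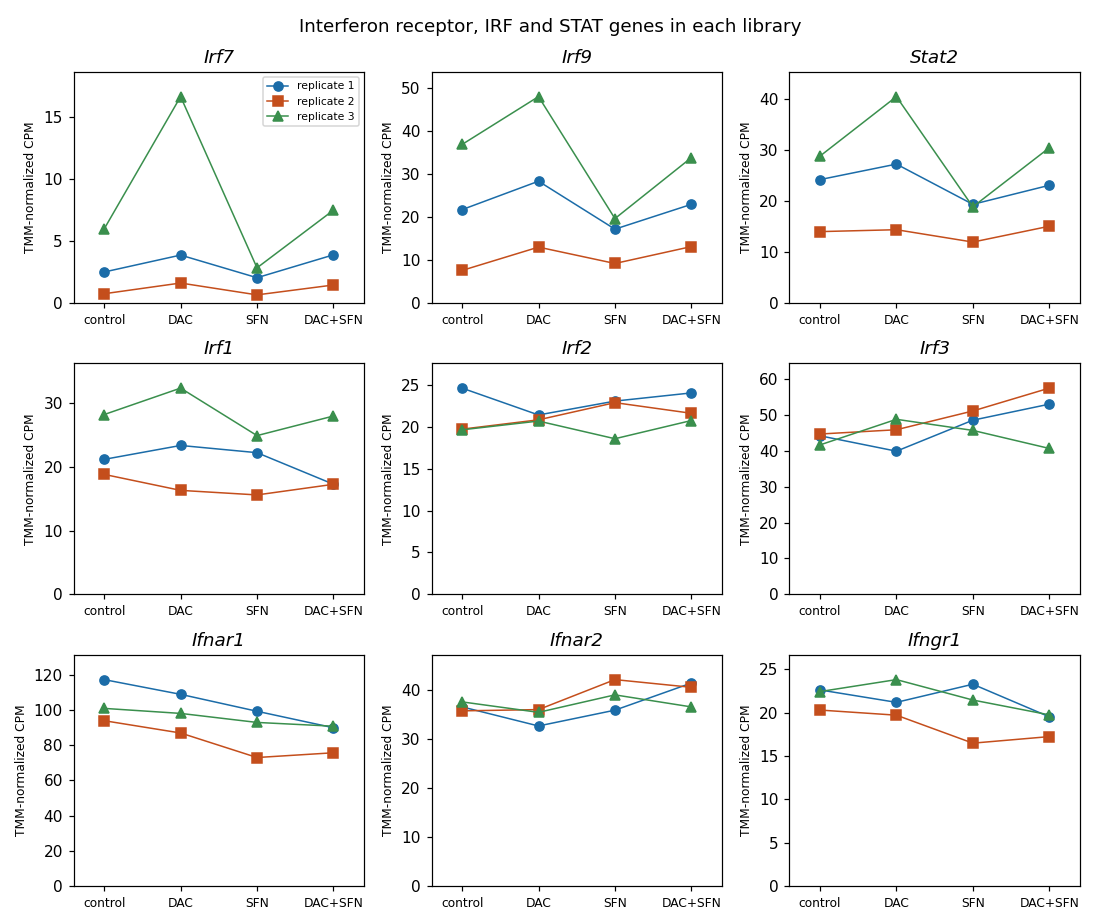
TMM-normalized CPM of each of the 9 genes (vertical axes from 0) in the 4 groups, with lines joining the libraries of the same replicate number. Irf7 peaked in DAC replicate 3 at 16.6 CPM and was lowest in SFN replicate 2 at 0.640, and for Irf7, Irf9 and Stat2 each line was higher with DAC than without it, while Ifnar1 was highest in control replicate 1 at 117 CPM.

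Thus 3 of the 9 genes rose with DAC on average, where 3.07% of the 11638 genes tested rose and 2.15% fell, and 0 of the 9 fell. The other 6 had averaged DAC differences between -0.065 (Ifnar1) and 0.051 (Irf3) on the log2 scale. Irf7 kept its call when any 1 library was left out. The Irf9 call was lost without SFN replicate 3 (0.42, edgeR adjusted p = 0.0668). The Stat2 call was lost without any 1 of 8 libraries, namely control replicates 1, 2 and 3, DAC replicate 3, SFN replicates 1 and 3 and DAC+SFN replicates 1 and 2, with values of 0.26 to 0.38 and edgeR adjusted p of 0.0551 to 0.122. With all 4 libraries of replicate number 3 left out, the DAC changes were 0.90 for Irf7, 0.50 for Irf9 and 0.20 for Stat2, and Irf7 and Irf9 were called. Without number 1, Irf7 alone was called (1.37, edgeR adjusted p = 0.0482). Without number 2, 0 of the 9 were called, and Irf7 had a difference of 1.196 (edgeR adjusted p = 0.0519). The fits without number 1, 2 or 3 called 13, 56 and 566 of all genes. With the replicate number taken out of the model, 0 of the 9 genes were called with DAC or with SFN on average, where 1 and 1052 of all genes were.

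Against control, DAC alone changed 0 of the 9 genes in edgeR, where 21 genes (0.180%) rose in all. At an unadjusted p under 0.05, which 10.1% of genes met, Irf7 (1.16), Irf9 (0.48, SE 0.15, edgeR adjusted p = 0.270) and Stat2 (0.27, SE 0.12, edgeR adjusted p = 0.467) passed. DESeq2 called 1 of the 9, against 0.713% of all genes. Irf7 was called in edgeR without DAC replicate 1 (1.46, edgeR adjusted p = 0.0240) or without DAC+SFN replicate 3 (1.16, edgeR adjusted p = 0.0315).

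SFN moved the same trio the other way. Averaged over the absence and presence of DAC, Irf7 fell by 0.63 on the log2 scale (SE 0.19, edgeR adjusted p = 0.0225), Irf9 fell by 0.34 (SE 0.11, edgeR adjusted p = 0.0308) and Stat2 fell by 0.31 (SE 0.085, edgeR adjusted p = 0.0133). With SFN, Irf7 was lower in 5 of 6 pairs, Irf9 in 4 of 6 and Stat2 in 5 of 6. The size of these differences varied with the replicate number. For Irf7 the averaged SFN difference was -0.14 in replicate 1, -0.16 in replicate 2 and -1.10 in replicate 3, and for Irf9 it was -0.32, 0.15 and -0.71. With the 4 libraries of number 3 left out, the values were -0.16 for Irf7, -0.13 for Irf9 and -0.20 for Stat2, and none of these was called (edgeR adjusted p = 0.574, 0.392 and 0.0711).

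The calls of Irf7 and Irf9 with SFN also depended on single libraries. That of Irf7 was lost without control replicate 1 or 3 (-0.61 and -0.62), DAC replicate 3 (-0.35), SFN replicate 3 (-0.39) or DAC+SFN replicate 3 (-0.51). That of Irf9 was lost without control replicate 1 (-0.33) or 3 (-0.26), DAC replicate 3 (-0.29), SFN replicate 3 (-0.22) or DAC+SFN replicate 1 (-0.32). Stat2 kept its call in all 12 fits that left out 1 library. With the 4 libraries of number 1 left out, the calls of Stat2 (-0.32, edgeR adjusted p = 0.0991) and Irf9 (-0.35, edgeR adjusted p = 0.187) were lost and that of Irf7 was kept (edgeR adjusted p = 0.0231). Without number 2, the call of Irf7 was lost (-0.74, edgeR adjusted p = 0.0552), while Irf9 and Stat2 were called (edgeR adjusted p = 0.00575 and 0.0197).

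Ifnar1, the receptor chain that docks TYK2, was the fourth gene lower with SFN. It had 117, 94.0 and 101 CPM in the DMSO control, 109, 87.0 and 98.1 after DAC alone, 99.3, 73.0 and 93.0 after SFN alone, and 90.0, 75.7 and 90.8 CPM after both agents. All 6 pairs were lower with SFN, and the DAC+SFN libraries all lay below the control libraries. The averaged SFN change of Ifnar1 was -0.22 (SE 0.043, edgeR adjusted p = 0.00161), and it was called without any 1 library and without the libraries of any 1 replicate number, but not without the replicate number in the model (edgeR adjusted p = 0.149). Thus 4 of the 9 genes fell with SFN on average, where 13.5% of all genes fell and 16.1% rose.

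**Figure D3:**
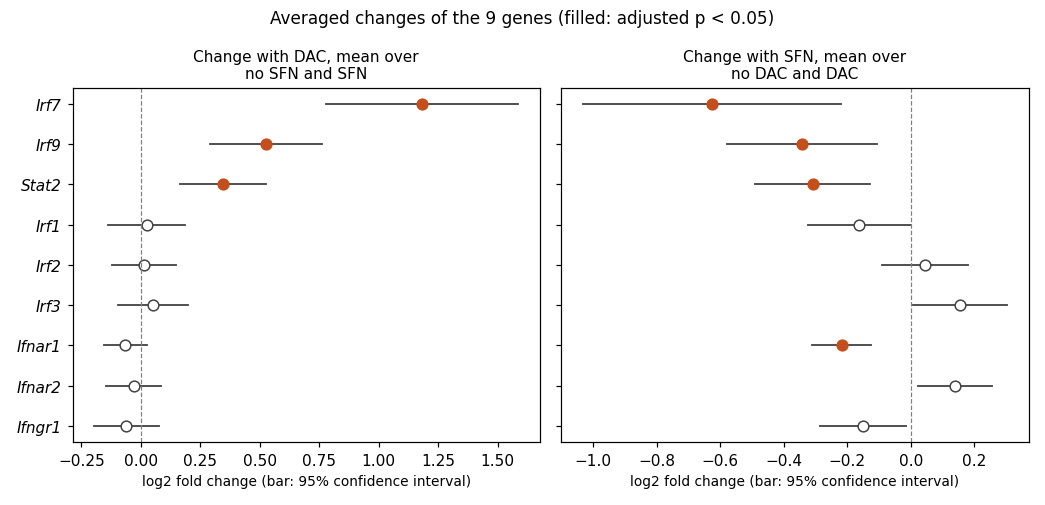
Log2 fold change of the 9 genes with DAC (left, averaged over no SFN and SFN) and with SFN (right, averaged over no DAC and DAC), with 95% confidence intervals; filled points had an adjusted p under 0.05. Irf7, Irf9 and Stat2 were above 0 with DAC and below 0 with SFN, and Ifnar1 was below 0 with SFN at -0.22.

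The other receptor chains and IRF genes, with all libraries in the fit, were called in 0 of the 8 treatment comparisons. Ifnar2, the chain that binds interferon most tightly and docks JAK1, had 36.5, 35.7 and 37.5 CPM in the DMSO control, 32.6, 35.9 and 35.4 after DAC alone, 35.8, 42.0 and 38.9 after SFN alone, and 41.3, 40.5 and 36.5 CPM after both agents. The 3 DAC+SFN libraries lay above the 3 DAC libraries, which 9.19% of genes did, but the change was not called (0.19, SE 0.077, edgeR adjusted p = 0.1097), and the averaged SFN difference was 0.14 (SE 0.054, edgeR adjusted p = 0.0645). That averaged difference was called without DAC+SFN replicate 3 (0.17, edgeR adjusted p = 0.0220). Ifnar1 differed from Ifnar2 by 1.14 ± 0.158 in the controls, 1.14 ± 0.234 after DAC, 0.82 ± 0.345 after SFN and 0.75 ± 0.206 after both, as the log2 ratio of their CPM per kb (SD, n = 3). These groups overlapped for SFN, and the highest DAC+SFN value, 0.96, lay below the lowest control value, 1.04.

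Ifngr1, the ligand-binding chain of the interferon gamma receptor, had 22.6, 20.3 and 22.4 CPM in the DMSO control, 21.2, 19.7 and 23.8 after DAC alone, 23.3, 16.5 and 21.5 after SFN alone, and 19.5, 17.2 and 19.8 CPM after both agents. The DAC+SFN libraries all lay below the control libraries, yet the change of -0.21 was not called (SE 0.091, edgeR adjusted p = 0.0873). With SFN on average Ifngr1 was called without SFN replicate 1 (-0.19, edgeR adjusted p = 0.0439). The value from all libraries was -0.15 (edgeR adjusted p = 0.0892). Irf3, the constitutive factor that starts interferon beta transcription, had 44.3, 44.7 and 41.7 CPM in the DMSO control, 40.0, 45.9 and 48.9 after DAC alone, 48.6, 51.2 and 45.8 after SFN alone, and 53.1, 57.6 and 40.7 CPM after both agents. Its SFN libraries all lay above the control libraries, as did those of 10.9% of genes, with a difference of 0.15 (SE 0.098, edgeR adjusted p = 0.324). Without DAC+SFN replicate 3, its lowest library in that group, Irf3 was called in DAC+SFN against control (0.33, edgeR adjusted p = 0.00526), where the value from all libraries was 0.21 (edgeR adjusted p = 0.1245). With SFN on average Irf3 was called without DAC replicate 3 (0.23, edgeR adjusted p = 0.00986) or DAC+SFN replicate 3 (0.22, edgeR adjusted p = 0.00588). All libraries gave 0.16 there (edgeR adjusted p = 0.105).

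Irf1, an activator induced by interferon gamma, had 21.2, 18.8 and 28.2 CPM in the DMSO control, 23.4, 16.3 and 32.4 after DAC alone, 22.3, 15.6 and 24.9 after SFN alone, and 17.3, 17.3 and 28.0 CPM after both agents. The groups overlapped, and replicate 3 was the highest in each. Irf2, which competes with IRF1 for its sites, had 24.7, 19.7 and 19.7 CPM in the DMSO control, 21.4, 20.9 and 20.7 after DAC alone, 23.1, 22.9 and 18.6 after SFN alone, and 24.1, 21.6 and 20.8 CPM after both agents. Neither was called in any of the 8 treatment comparisons. The averaged SFN differences were -0.16 for Irf1 (edgeR adjusted p = 0.122) and 0.044 for Irf2.

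Against control, SFN alone lowered 2 of the 9 genes, where 5.65% of all genes fell and 8.27% rose. Stat2 fell by 0.39 (SE 0.12, edgeR adjusted p = 0.0444) and Ifnar1 fell by 0.24 (SE 0.060, edgeR adjusted p = 0.0157), while Irf7 (-0.65, edgeR adjusted p = 0.157) and Irf9 (-0.39, edgeR adjusted p = 0.121) missed the threshold. The Stat2 call was lost without control replicate 1, 2 or 3, DAC replicate 1, or SFN replicate 1 or 3, with values of -0.46 to -0.23. The Ifnar1 call was lost without control replicate 1 or 2 or SFN replicate 2, with values of -0.23 to -0.19. Irf9 was called without control replicate 2 (-0.57, edgeR adjusted p = 0.0253). With all libraries of number 1, 2 or 3 left out, the Stat2 call was lost each time (edgeR adjusted p = 0.186, 0.100 and 0.108). That of Ifnar1 was lost without number 1 or 2 (edgeR adjusted p = 0.117 and 0.231) and kept without number 3 (edgeR adjusted p = 0.00871). Without number 2 the 1 gene called was Irf9 (-0.64, edgeR adjusted p = 0.0349).

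In DAC+SFN against control, 1 of the 9 genes fell and 0 rose, where 14.7% of all genes fell and 17.0% rose. That gene was Ifnar1 (-0.28, SE 0.061, edgeR adjusted p = 0.00287), and this call held without any 1 library and without the libraries of number 2 or 3 (edgeR adjusted p = 0.0374 and 0.00153). It was lost without number 1 (-0.23, edgeR adjusted p = 0.0840) and without the replicate number in the model (edgeR adjusted p = 0.172). Irf7 differed by 0.56 (SE 0.26, edgeR adjusted p = 0.123), Irf9 by 0.18 (SE 0.16, edgeR adjusted p = 0.394) and Stat2 by 0.037 (SE 0.12, edgeR adjusted p = 0.846). Ifnar1 and Ifngr1 were the 2 genes whose DAC+SFN libraries all lay below control, as for 14.3% of genes.

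In DAC+SFN against DAC, 1 of the 9 genes fell, where 6.60% of genes did. Ifnar1 was lower by 0.20 on the log2 scale (-0.20, SE 0.061, edgeR adjusted p = 0.0416). This call was lost without control replicate 1, DAC replicate 1, 2 or 3, SFN replicate 1 or 3, or DAC+SFN replicate 1 or 2, with values of -0.22 to -0.15. Irf7 differed by -0.60 (edgeR adjusted p = 0.106), with replicate differences of 0.0070, -0.14 and -1.15, and was called without DAC replicate 1 (-0.91, edgeR adjusted p = 0.0324). Ifnar2 was called without DAC+SFN replicate 3 (0.25, edgeR adjusted p = 0.0395).

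In DAC+SFN against SFN, 1 of the 9 genes rose, where 0.937% of genes did, and it was Irf7 at 2.31-fold. A rise above 2-fold was called for 0.112% of genes. Irf9 differed by 0.57 (SE 0.16, edgeR adjusted p = 0.0756) and Stat2 by 0.43 (SE 0.12, edgeR adjusted p = 0.0821). The Irf7 call was lost without any 1 of 9 libraries, namely control replicates 1, 2 and 3, DAC replicate 2, SFN replicates 1, 2 and 3 and DAC+SFN replicates 1 and 2, with values of 0.77 to 1.49. Irf9 was called without control replicate 2 (0.58), SFN replicate 2 (0.72) or DAC+SFN replicate 3 (0.64), and Stat2 without DAC replicate 3 (0.43).

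The interaction of DAC and SFN was called for 0 of the 9 genes, and for 0 of all 11638, in edgeR. At an unadjusted p under 0.05 it was met by 0 of the 9 and by 5.87% of all genes, and DESeq2 called 0 of the 9 and 0 of all genes. The interaction of Irf7 was 0.047 with a 95% interval of -0.75 to 0.84, so a wide range of differences between the DAC effects without and with SFN could not be told from 0. For Irf9 the interval was -0.38 to 0.57, and for Stat2 it was -0.20 to 0.52.

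These genes also differed between replicate numbers. Of the 9, 6 differed by replicate number in edgeR, where 33.9% of all genes did, namely Irf1, Irf7, Irf9, Stat2, Ifnar1 and Ifngr1. Over the 4 libraries of a number, Irf7 had a mean of 3.06 CPM in number 1, 1.10 in number 2 and 8.22 in number 3. Irf9 had means of 22.5, 10.7 and 34.5 CPM and Stat2 of 23.5, 13.8 and 29.7 CPM. The library numbers in the labels follow the replicate numbers, so a culture batch and a library batch cannot be told apart. The Ifngr1 call was lost without control replicate 1 or 2, DAC replicate 2 or 3, SFN replicate 1, 2 or 3, or DAC+SFN replicate 2, and Irf3 was called without DAC replicate 3 (edgeR adjusted p = 0.0335).

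After the mean of each replicate number was removed, Irf7, Irf9 and Stat2 followed each other over the 12 libraries, with Pearson correlations of log2 CPM of 0.92 for Irf7 with Irf9, 0.90 for Irf7 with Stat2 and 0.87 for Irf9 with Stat2. These describe 12 libraries that share treatments and replicate numbers. Among the genes tested, those most like Irf7 were Usp18 (0.977), Med26, Trim25, Helz2 and Ddx58. Among those most like Irf9 were Helz2 (0.970), Rtp4, Trim25 and Oas1g, and those most like Stat2 were Parp9 (0.992), Helz2, B2m, Gm6548 and Ube2l6. Usp18 removes ISG15 and limits IFNAR2 signalling, Trim25 and Ddx58 (RIG-I) act in RNA sensing, and B2m is the MHC class I light chain.

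The partners of the 9 proteins were tested in the same model. Stat3, which carries cytokine signals of the IL-6 family, rose with DAC on average (0.24, SE 0.044, edgeR adjusted p = 0.00849) and in DAC+SFN against control (0.36, SE 0.062, edgeR adjusted p = 0.000690). Of 3 other receptor genes tested, Il10rb, a chain shared by the interferon lambda and IL-10 receptors, fell by 0.24 with SFN on average (SE 0.047, edgeR adjusted p = 0.00170), where 13.5% of all genes fell. Ifngr2, the partner of Ifngr1, differed by 0.026 in DAC+SFN against control (edgeR adjusted p = 0.760).

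Of the 4 Janus kinases, Jak1 rose with SFN on average (0.14, SE 0.037, edgeR adjusted p = 0.0129) and Jak2 was lower in DAC+SFN than in control (-0.22, SE 0.076, edgeR adjusted p = 0.0366), while Tyk2 was called in neither. These counts of 1 in 4 stand beside 16.1% of all genes that rose with SFN on average and 14.7% that fell in DAC+SFN against control. Of 11 negative regulators, 1 rose with DAC on average, Usp18 (1.04, SE 0.18, edgeR adjusted p = 0.00647), and 2 fell with SFN on average, the phosphatase gene Ptpn2 (-0.15, edgeR adjusted p = 0.0413) and the SUMO ligase gene Pias2 (-0.17, edgeR adjusted p = 0.0116), beside 3.07% of all genes that rose with DAC and 13.5% that fell with SFN. Of 9 adaptors and kinases that activate IRF3 and IRF7, 0 were called with DAC on average in either direction, 3 rose with SFN and 1 fell, where 16.1% of all genes rose and 13.5% fell. Among them Ticam1, the TRIF adaptor, rose with SFN on average (0.31, SE 0.056, edgeR adjusted p = 0.000991).

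Most of the genes listed as ISGF3 targets rose with DAC on average. Of 26 tested ISGF3 targets, 20 rose with DAC on average and 0 fell, where 3.07% of all genes rose and 2.15% fell, with a median log2 change of 0.84 against 0.0047 over all genes tested. With SFN on average 1 rose and 8 fell, where 16.1% of all genes rose and 13.5% fell, with a median of -0.096 against 0.0019. In DAC against control 0 were called in edgeR and 21 passed an unadjusted p under 0.05, which 10.1% of all genes did, and DESeq2 called 5, against 0.713% of all genes. In DAC+SFN against control 14 rose and 0 fell, where 17.0% of all genes rose and 14.7% fell, while 0 of Irf7, Irf9 and Stat2 were called in that comparison. Ifit1, an antiviral RNA-binding protein gene, rose with DAC on average (1.09, SE 0.15, edgeR adjusted p = 0.00199) and also rose with SFN (0.62, SE 0.15, edgeR adjusted p = 0.00516). Ddx60 rose in DAC+SFN against control by 1.54 (SE 0.30, edgeR adjusted p = 0.00148), Ifit3b by 1.69 (SE 0.34, edgeR adjusted p = 0.00198) and Ifit3 by 1.11 (SE 0.23, edgeR adjusted p = 0.00259). Ifit3 and Ifit3b are near-identical, so reads kept only where they align once may be split unevenly between them.

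Of 16 tested targets of IRF1 and interferon gamma, 9 rose and 0 fell with DAC on average, 3 rose and 1 fell with SFN on average, and 8 rose and 0 fell in DAC+SFN against control. Of all genes, 3.07% rose and 2.15% fell with DAC on average. The share that rose was 16.1% with SFN on average and 17.0% in DAC+SFN against control, and 13.5% and 14.7% fell. Irf1 itself had differences of 0.024 with DAC and -0.16 with SFN, neither called. Cxcl10, a chemokine gene, rose in DAC+SFN against control by 1.01 (SE 0.13, edgeR adjusted p = 5.52e-05), Tap1, a peptide transporter gene, by 1.06 (SE 0.19, edgeR adjusted p = 0.000741) and Nlrc5, the activator of MHC class I genes, by 1.36 (SE 0.28, edgeR adjusted p = 0.00238). Gbp2, a guanylate-binding protein gene, rose by 0.92 (SE 0.21, edgeR adjusted p = 0.00391).

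**Figure D4:**
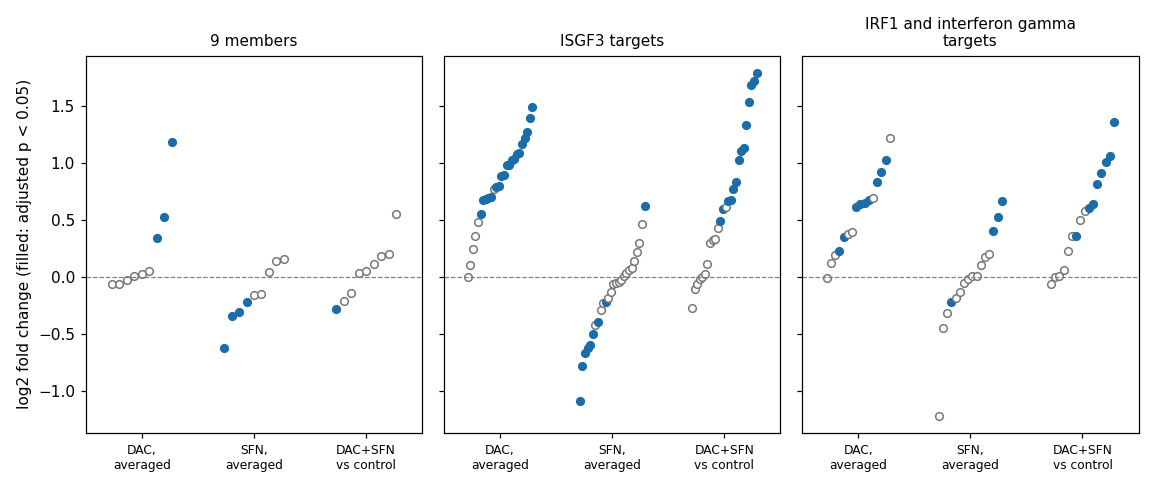
Log2 fold changes of the 9 genes, the 26 tested ISGF3 targets and the 16 tested IRF1 and interferon gamma targets, 1 point per gene sorted within each column, with filled points at an adjusted p under 0.05. In DAC+SFN against control the 9 genes had 1 filled point, below 0 (Ifnar1), whereas 14 ISGF3 targets and 8 IRF1 and interferon gamma targets were filled above 0.

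The target counts depended on the replicate structure as those of the 9 genes did. Without the replicate number in the model, 0 of the ISGF3 targets were called with DAC on average and 2 in DAC+SFN against control, where 1 and 1201 of all 11638 genes were. That model also called 0 of the ISGF3 targets with SFN on average, beside 1052 of all genes. With all libraries of number 1, 2 or 3 left out, 6, 8 and 17 of them were called in DAC+SFN against control, beside 1471, 1762 and 4033 of all genes. With DAC on average these fits called 1, 11 and 18 of the targets, beside 13, 56 and 566 of all genes. With SFN on average they called 4, 7 and 9 of the targets, beside 1547, 1653 and 3957 of all genes. Of the IRF1 and interferon gamma targets, 0 were called with DAC on average, 0 with SFN on average and 2 in DAC+SFN against control without the replicate number in the model. Without number 1, 2 or 3 these targets had 1, 4 and 6 calls with DAC on average, 1, 3 and 7 with SFN on average, and 3, 5 and 9 in DAC+SFN against control. The counts over all genes in these fits are those given above. With 1 library left out, the IRF1 and interferon gamma targets called ran from 4 to 11 with DAC on average (4 without control replicate 1 or SFN replicate 3, 5 without SFN replicate 1), from 1 to 6 with SFN on average (1 without control replicate 2, 2 without SFN replicate 2 or DAC+SFN replicate 1) and from 6 to 9 in DAC+SFN against control. The ISGF3 targets called ran from 14 to 21 with DAC on average, from 4 (without SFN replicate 3) to 10 with SFN on average, and from 9 (without control replicate 1 or 2 or DAC+SFN replicate 2) to 16 in DAC+SFN against control. Over all genes, the same fits called 160 to 1365 with DAC on average and 2560 to 4140 with SFN on average. In DAC+SFN against control they called 2333 to 4199.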

How the data were processed

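RNA from 12 B16F10 cultures, 3 per group, was sequenced from stranded poly(A) libraries. Per the submitters' processing notes and the study's methods, the authors checked reads with FastQC 0.11.7, trimmed them with Trimmomatic 0.38, aligned them to mm10 with TopHat2 2.1.1, counted uniquely aligned reads per gene with HTSeq, and deposited those read counts without normalization. Multimapped reads were discarded, so genes with near-identical copies are undercounted. The annotation and strand setting of the counting are not given in the sources used here. Totals ran from 15880957 to 27291436 counts per library, so 1 CPM stands for about 16 to 27 reads.

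The counts were fitted in edgeR 4.0.16 (legacy glmQLFit and glmQLFTest, R 4.3.3) over all 12 libraries, with TMM scaling, genes of at least 1 CPM in at least 3 libraries and the replicate number as a block, since the study's methods correct for a batch that is not named. A gene was called at a two-sided Benjamini-Hochberg adjusted p under 0.05 over the 11638 genes. P-values were not adjusted further over the 8 treatment comparisons. The replicate numbers come from the labels, and libraries of the same number deviated together, with correlations of 0.270 to 0.732 in 18 pairs. The chi-square per gene between replicates of a group was 13.6 to 37.5, so none was a copy. SE was computed as log2 fold change over root F, and fitted fold changes carry a prior count of 0.125. Differences within replicate pairs and correlations use a prior count of 2. In simulated counts for the averaged DAC comparison, 48 of 50 genes changed 1.5-fold were recovered, with 15 false calls among 11583 genes. Those 15 stood beside 48 of 48, 50 of 50 and 49 of 49 genes recovered at 2-, 3- and 4-fold. Such recovery need not hold in the real counts. In DAC against control 48 of 48 simulated 2-fold genes were recovered, whereas Irf7 at 2.23-fold was not called.

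The text names the 9 genes, their partners Jak1, Tyk2, Jak2 and Ifngr2, up to 4 genes per pathway list with the smallest adjusted p in DAC+SFN against control, and the 5 genes most correlated with Irf7, Irf9 and Stat2. Some genes that this rule names are not reported here. The members and lists were chosen with earlier results of these data known. Gene models were GENCODE M21 (mm10) and promoters RefSeq (GRCm38.p6). Alternatives were DESeq2 1.42.0 and its size factors, other filters, no block, the edgeR version 4 and robust fits, only the groups compared, a prior count of 2 and each library left out. Leaving out all libraries of a replicate number was added after the data were seen. Figures were drawn with matplotlib 3.10.9.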

Additional observations from a re-analysis of the deposited data

How the results depend on the processing

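The number of the 9 genes called moved with the model, and the cause was not tested. With all libraries, 0 genes were called in DAC against control, 2 in SFN against control, 1 each in DAC+SFN against control, against DAC and against SFN, 3 with DAC averaged and 4 with SFN averaged. Without the replicate block, 0 were called in each of SFN against control, DAC+SFN against control, against DAC and against SFN, DAC averaged and SFN averaged, beside 23, 1201, 20, 0, 1 and 1052 of all genes. The DESeq2 Wald test called 1 in DAC against control and 3 in DAC+SFN against SFN, beside 83 and 404 of all genes. With no filter on low counts, 2 were called in DAC against control, 3 in SFN against control, 2 in DAC+SFN against DAC and 3 in DAC+SFN against SFN, beside 169, 1826, 2088 and 486 of all genes. The edgeR version 4 fit called 1 in DAC against control and 2 in DAC+SFN against DAC, beside 33 and 1876. With only the groups compared in the fit, the counts were 2 in DAC against control, 0 in DAC+SFN against DAC and 3 in DAC+SFN against SFN, beside 663, 748 and 1267. The fit with all libraries called 21 genes in DAC against control, 1879 in DAC+SFN against DAC and 187 in DAC+SFN against SFN. The robust fit lost the Irf9 call with SFN averaged (-0.34, edgeR adjusted p = 0.0612). It called 15 ISGF3 targets with DAC averaged and 10 in DAC+SFN against control, where the main fit called 20 and 14. Over all genes it called 628 and 3667, where the main fit called 607 and 3683. The counts of IRF1 and interferon gamma targets in these comparisons stayed at 9 and 8. DESeq2 size factors, a minimum of 10 counts in every library and a prior count of 2 changed no call of the 9 genes.

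Leaving out 1 library at a time gave 0 to 1 calls in DAC against control, 0 to 2 in SFN against control, 1 to 2 in DAC+SFN against control, 0 to 3 against DAC, 0 to 2 against SFN, 1 to 3 with DAC averaged and 2 to 5 with SFN averaged. All-gene calls ran from 0 to 101 in DAC against control and from 726 to 2105 in SFN against control. They ran from 2333 to 4199 in DAC+SFN against control, 769 to 2377 against DAC and 0 to 703 against SFN. With DAC averaged they ran from 160 to 1365, and with SFN averaged from 2560 to 4140. Leaving out all libraries numbered 1 was a choice made after seeing the data. It gave 0 calls in SFN against control and in DAC+SFN against control, DAC and SFN. It gave 1 call with DAC averaged and 2 with SFN averaged. That fit called 625 of all genes in SFN against control, and 1471, 245 and 0 in DAC+SFN against control, DAC and SFN. With DAC averaged it called 13 of all genes, and with SFN averaged 1547. Since 0 of all genes were called in DAC+SFN against SFN, the 0 there does not set these genes apart. Without number 2 there was 1 call in SFN against control, Irf9, with those of Stat2 and Ifnar1 lost, and 0 in DAC+SFN against DAC, in DAC+SFN against SFN and with DAC averaged. Over all genes, 429, 863, 3 and 56 were called in these comparisons. Without number 3 there was 1 call in SFN against control, Ifnar1, 2 in DAC+SFN against control, 2 against DAC and 0 against SFN. All-gene calls there were 1799, 4033, 2402 and 184. These fits hold fewer libraries.

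Signs changed only for values that were not called. The Irf7 interaction was -0.080 without the block and -0.040 without number 1, and ran from -0.38 to 0.59 with 1 library left out. The Irf9 interaction was -0.081 without number 3 and ran from -0.12 to 0.27. Without number 2, DAC+SFN against control was -0.037 for Irf9 and -0.00092 for Stat2. With 1 library left out, DAC against control ran from -0.0051 to 0.15 for Irf1, -0.078 to 0.054 for Irf2, -0.097 to 0.15 for Irf3 and -0.062 to 0.047 for Ifngr1. SFN against control ran from -0.066 to 0.078 for Irf2, and DAC+SFN against control from -0.0054 to 0.12 for Irf2 and -0.0025 to 0.085 for Stat2. Irf7 had as few as 17 reads in a library, so its level there carries a wide counting error.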
